A study of Mus musculus with 2 samples.

Results

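The serpin (serine protease inhibitor) family was described in aortic macrophages of ApoE-/- mice modelling 1 of 2 syndromes of traditional Chinese medicine, Phlegm-Dampness Retention (PDR) or Spleen and Kidney Yang Deficiency (SKYD). The family was taken as all genes annotated as protein-coding whose symbol starts with Serpin and a clade letter from a to i. This rule gave 61 of 54532 genes, with 24 in clade A, 26 in clade B and 11 in clades C to I.

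All mice were male, carried the ApoE-/- genotype on the C57BL/6J background and were 6 weeks old by the labels. The PDR group received 4 weeks of high-fat diet. The SKYD group received 4 weeks of propylthiouracil, which blocks thyroid hormone synthesis, at 10 mg/kg per day by gavage, and afterwards 2 weeks of high-fat diet, so that drug, diet time and time of sampling cannot be told apart from the syndrome. Aortic cells were sorted on F4/80 and CD11b, and the cells of 5 mice were combined into 1 library in each group. There are therefore no replicates, no test of the groups was made, and every difference is one between 2 pooled libraries.

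Reads on genes summed to 23086889 (PDR) and 25427863 (SKYD). The sorted antigens were found in both libraries, with 6639 and 7551 reads on Adgre1 (F4/80) and 1043 and 1803 reads on Itgam (CD11b), the PDR library being given first here and throughout. Apoe, the gene these mice lack, had 17336 and 3618 reads, and since the table holds whole genes, it cannot be seen from them whether the deleted stretch is covered. Genes of other cell types were present as well, and these values are given beside the serpins they concern. In such mixed RNA, fewer cells of a type and less RNA per cell cannot be told apart.

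Serpins are protease inhibitors that work as bait. An exposed stretch near the end of the protein, the reactive centre loop, is cut by the target protease, and the serpin then folds around it and holds the protease bound and inactive. The sequence of the loop sets which protease is caught. Clade A serpins are mostly secreted, and many are plasma proteins of the liver. Clade B serpins mostly stay inside the cell and guard leukocytes and epithelia against their own granule proteases. The remaining clades include the inhibitors of thrombin, plasmin and complement, and some members, such as the collagen chaperone Serpinh1, inhibit no protease.

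Levels are given as FPKM (reads scaled to gene length and to library size), which allows levels of different genes to be compared. Summed over the 61 genes, the levels were 1549 FPKM (PDR) and 780.0 FPKM (SKYD). Clade A made up 70.5% and 30.5% of these sums, and clade B 26.3% and 65.4%. The order of the leading genes therefore differed. In the PDR library the highest levels were those of Serpina3k (323 FPKM), Serpina3g (288 FPKM), Serpina1e (195 FPKM), Serpinb1a (178 FPKM) and Serpinb2 (152 FPKM). In the SKYD library they were those of Serpinb2 (240.1 FPKM), Serpinb1a (216 FPKM), Serpina3k (72.0 FPKM), Serpina1e (50.3 FPKM) and Serpina3g (37.5 FPKM). The same 5 genes led both libraries and held 73.3% and 78.9% of the summed serpin level.

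**Figure D1:**
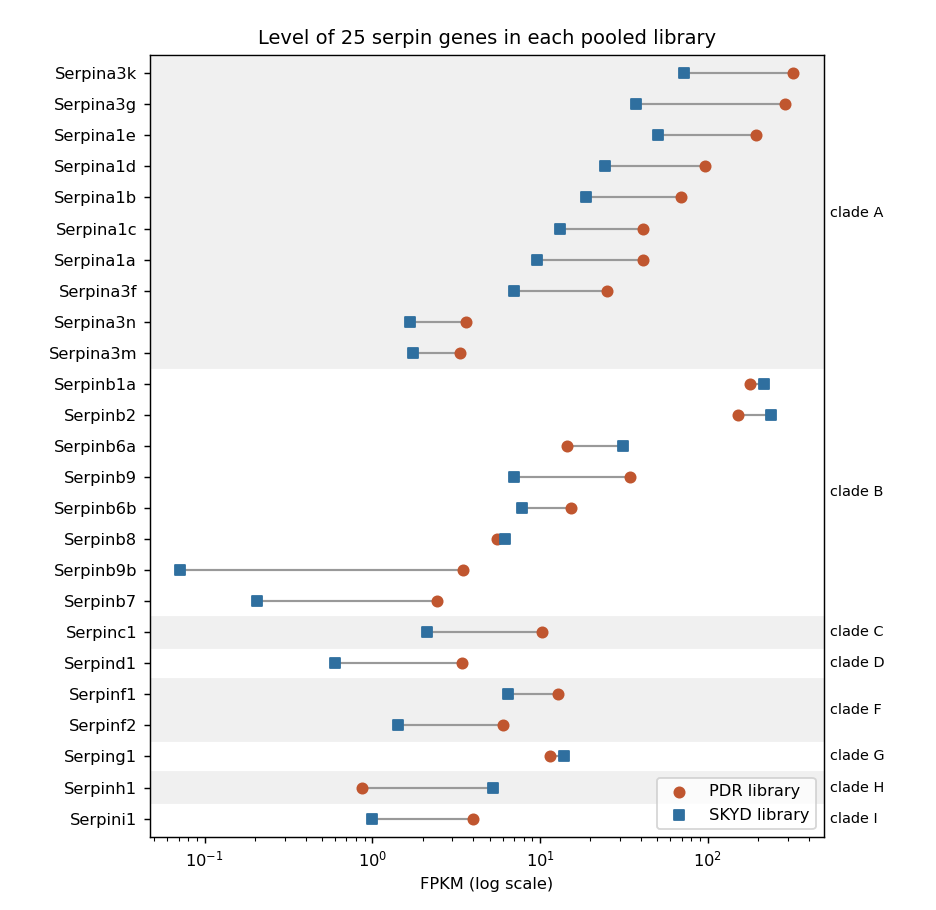
FPKM (log axis) of the 25 serpin genes whose mean FPKM reached 1 in the PDR library (circles) and in the SKYD library (squares), grouped by clade, with 1 pooled library per group and no error bar. All 10 clade A genes lie higher in the PDR library, while the clade B genes Serpinb1a, Serpinb2, Serpinb6a and Serpinb8 lie higher in the SKYD library.

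A mean of at least 1 FPKM over the libraries was reached by 25 of the 61 genes, the lowest being Serpinb7 at 1.31 FPKM, and the next gene, Serpina6, had 0.933 FPKM. Of the 25 genes, 5 were below 1 FPKM in 1 of the libraries and passed only through the other, so counts over the 25 lean towards genes that differ. Differences are given as log2(FPKM + 1) in PDR minus SKYD, a scale that understates the change of low genes. More than 2-fold higher levels in PDR were found for 15 of the 25 genes, against 7.38% of all 10399 genes that reached the same mean. Such a difference in favour of SKYD was found for 2, against 6.91% of these genes. Among the protein-coding genes alone, these background shares were 6.16% and 5.38%. By any amount, 19 of the 25 genes were higher in PDR, against 49.6% of all. On this log2(FPKM + 1) scale, 4 genes passed 4-fold towards PDR (1.87% of all 10399 genes) and 0 towards SKYD (2.08%), while the plain FPKM ratios of further genes, given below, exceed 4. The median difference of the 25 genes was 1.50, beside -0.0035 for all 10399 genes, and it was 0 over all 61 genes without a filter. By clade, the median difference was 1.88 for 10 genes of clade A (0.73 without a filter), 0.38 for 8 genes of clade B (0 without a filter, -0.21 at a mean FPKM of at least 5) and 1.32 for 7 genes of clades C to I (0 and 0.89). Intervals below are exact (Clopper-Pearson) 95% intervals for the division of the reads of 1 gene over both libraries, and they cover counting error only.

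**Figure D2:**
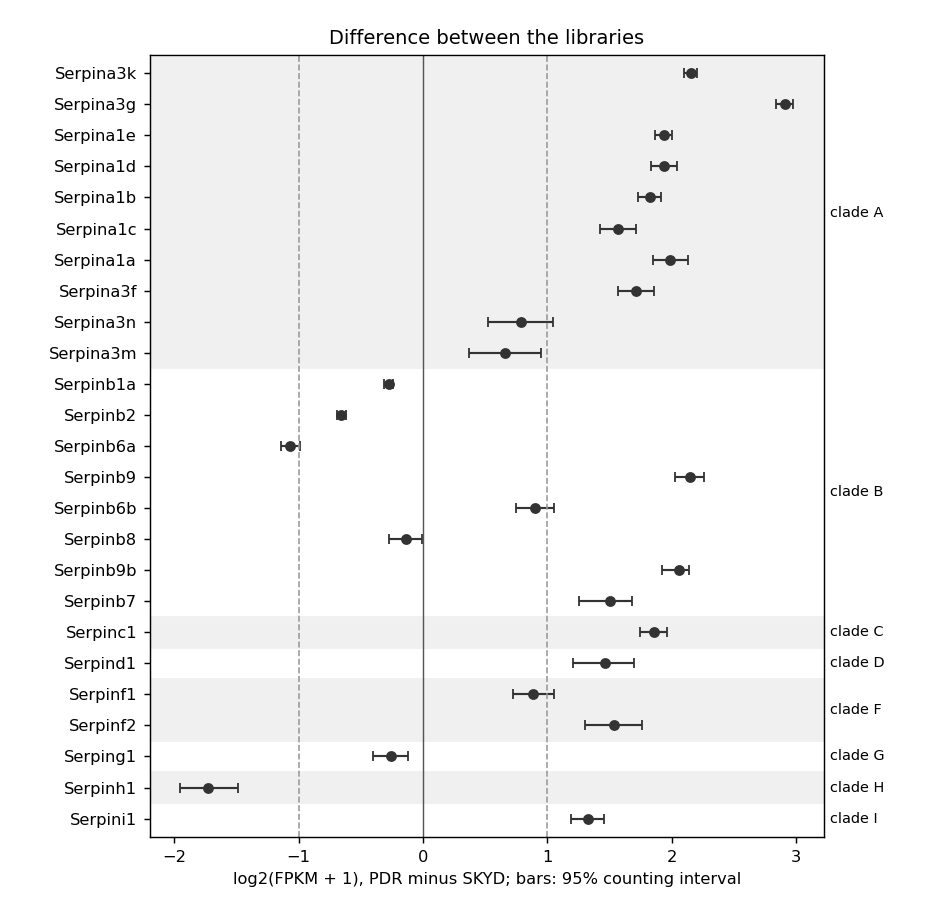
Difference in log2(FPKM + 1), PDR minus SKYD, for the 25 serpin genes whose mean FPKM reached 1. Points are single values from 1 library per group, bars are 95% counting intervals, and dashed lines mark a 2-fold difference, which 15 genes passed towards PDR and 2, Serpinb6a and Serpinh1, towards SKYD.

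The alpha-1-antitrypsin genes Serpina1a to Serpina1e encode the main plasma inhibitor of neutrophil elastase, made chiefly by hepatocytes, and mice carry several copies of the gene where humans have a single one. All 5 copies were higher in the PDR library. Serpina1e (ENSMUSG00000072849, chr12:103946931-103958975 of GRCm38) had 7399 and 2031 reads, or 195 and 50.3 FPKM, which is 3.88-fold higher in PDR (95% CI 3.69 to 4.07). For Serpina1d the levels were 96.8 and 24.6 FPKM, 3.94-fold higher in PDR. Serpina1b had 69.4 and 18.9 FPKM, 3.67-fold higher. The lowest copies were Serpina1a, with 41.2 and 9.63 FPKM, and Serpina1c, with 41.1 and 13.2 FPKM. The fold of Serpina1c, 3.11 (95% CI 2.79 to 3.47), was the smallest of the 5, and its interval did not overlap that of Serpina1e.

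The copies differ in the coding sequence of the reactive centre loop, which is shown because reads from there tell the copies apart. These stretches of the last coding exon were read from the GENCODE M21 transcripts, from the glutamate codon that opens the loop hinge to the codons after it, and capitals mark the 18 of 87 positions at which the 5 copies are not all alike. On the minus strand of chromosome 12 of GRCm38, they lie at chr12:103853750-103853836 for Serpina1a, chr12:103728317-103728403 for Serpina1b, chr12:103895087-103895173 for Serpina1c, chr12:103763755-103763841 for Serpina1d and chr12:103947093-103947179 for Serpina1e.
Serpina1a: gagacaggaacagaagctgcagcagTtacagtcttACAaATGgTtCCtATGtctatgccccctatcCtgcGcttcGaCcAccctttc
Serpina1b: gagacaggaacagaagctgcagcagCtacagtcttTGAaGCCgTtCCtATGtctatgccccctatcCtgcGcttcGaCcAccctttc
Serpina1c: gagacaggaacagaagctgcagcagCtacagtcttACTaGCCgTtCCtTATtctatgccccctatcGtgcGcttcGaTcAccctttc
Serpina1d: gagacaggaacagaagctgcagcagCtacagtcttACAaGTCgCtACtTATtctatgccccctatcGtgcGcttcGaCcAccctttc
Serpina1e: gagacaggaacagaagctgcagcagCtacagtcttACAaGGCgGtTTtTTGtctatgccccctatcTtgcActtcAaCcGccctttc
Elsewhere the copies are nearly identical. Over the whole coding sequence the 10 pairs share from 96.3% to 98.5% of bases. Of all windows of 100 bases, the length of 1 read, 14.4% in Serpina1e, 14.8% in Serpina1b, 29.3% in Serpina1d, 42.8% in Serpina1a and 58.5% in Serpina1c occur in another gene as well, so the level of each single copy, that of Serpina1c most of all, is uncertain. The gene model of Serpina1b also spans Serpina1d, by 9999 bases on the same strand.

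The share of each copy in the summed Serpina1a to Serpina1e reads was similar in both libraries although the sum, 17591 and 4920 reads, was not. Serpina1e took 42.1% (95% CI 41.3 to 42.8) and 41.3% (95% CI 39.9 to 42.7) of these reads. Serpina1b took 22.4% and 23.2%, and Serpina1d took 18.0% and 17.4%. For Serpina1a the shares were 10.1% (95% CI 9.63 to 10.5) and 8.96% (95% CI 8.18 to 9.80). Only the intervals of Serpina1c did not overlap, with 7.47% (95% CI 7.09 to 7.87) for PDR and 9.15% (95% CI 8.36 to 9.99) for SKYD.

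The 5 genes also share their proximal promoter, which is shown because all 5 were higher in PDR. The sequences are those of RefSeq on GRCm38.p6, up to the base before the annotated start except in Serpina1e, and capitals mark GTTAATATTCAC. They lie on the minus strand at chr12:103863620-103863684, chr12:103738190-103738259, chr12:103904951-103905021, chr12:103773634-103773693 and chr12:103956940-103957019.
Serpina1a: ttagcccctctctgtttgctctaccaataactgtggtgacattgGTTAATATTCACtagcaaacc
Serpina1b: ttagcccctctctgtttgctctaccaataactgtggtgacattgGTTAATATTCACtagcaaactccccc
Serpina1c: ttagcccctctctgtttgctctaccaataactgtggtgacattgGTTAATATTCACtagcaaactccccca
Serpina1d: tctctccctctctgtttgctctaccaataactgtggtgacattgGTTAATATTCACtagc
Serpina1e: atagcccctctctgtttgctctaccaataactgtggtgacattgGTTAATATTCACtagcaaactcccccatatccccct
This run of letters, searched on both strands and chosen after the promoters had been read, occurs in 5 of 32851 RefSeq promoter windows of 300 bases, or 0.0152% of them, and these 5 windows are those of Serpina1a to Serpina1e. A palindrome of the liver factor HNF1, GTTAAT and ATTAAC with 1 base between them, was in 3 of all windows and in 0 windows of the 52 serpin genes that have a promoter entry.

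The Serpina3 genes descend from the single antichymotrypsin gene of other mammals, and their loops have diverged. Serpina3k, a liver plasma protein, had the highest serpin level in the PDR library. It had 15601 and 3701 reads, or 323 and 72.0 FPKM, and was 4.49-fold higher in PDR (95% CI 4.33 to 4.65). Serpina3g, an inhibitor of lysosomal cathepsins that is made by activated leukocytes and stays in the cell, had 14223 and 1972 reads, or 288 and 37.5 FPKM. It was 7.67-fold higher in PDR (95% CI 7.32 to 8.05), and its log2 difference of 2.91 was the largest of the 25 genes on that scale. Its neighbour Serpina3f had 25.1 and 6.99 FPKM and was 3.59-fold higher in PDR (95% CI 3.21 to 4.03). Serpina3n, an acute phase protein of liver and other tissues that inhibits granzyme B, had 3.63 and 1.69 FPKM. Serpina3m had 3.34 and 1.75 FPKM. The log2 differences of the last 2 genes, 0.79 (95% CI 0.52 to 1.04) and 0.66 (95% CI 0.37 to 0.95), lay below those of the other 3.

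Their loop-coding stretches show how far these genes have parted. Capitals mark the codons between the conserved hinge and the conserved end of the loop, read from the plus strand of the last exon at chr12:104220239-104220337, chr12:104241066-104241161, chr12:104345263-104345352, chr12:104393763-104393858 and chr12:104413442-104413537.
Serpina3f: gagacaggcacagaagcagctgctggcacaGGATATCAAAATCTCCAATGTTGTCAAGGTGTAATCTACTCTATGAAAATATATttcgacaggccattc
Serpina3g: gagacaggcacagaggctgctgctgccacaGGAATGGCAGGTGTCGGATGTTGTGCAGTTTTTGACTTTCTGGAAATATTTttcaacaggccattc
Serpina3k: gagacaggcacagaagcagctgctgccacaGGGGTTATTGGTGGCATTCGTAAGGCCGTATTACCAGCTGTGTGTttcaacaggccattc
Serpina3m: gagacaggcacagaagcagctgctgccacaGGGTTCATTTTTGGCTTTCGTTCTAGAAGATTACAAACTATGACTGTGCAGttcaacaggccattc
Serpina3n: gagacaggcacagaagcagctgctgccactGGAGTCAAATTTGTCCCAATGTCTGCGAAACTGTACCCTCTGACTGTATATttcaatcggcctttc
The hinge codons are nearly the same while the capitals differ in sequence and in number, from 45 bases in Serpina3k to 54 in Serpina3f. Coding identity between pairs ranged from 81.8% to 91.99%, and at most 6.09% of the 100-base windows of these 5 genes, in Serpina3m, occur in another gene. The gene span of Serpina3m, introns included, contains that of Serpina3k, an overlap of 7659 bases on the same strand. Of the 100-base windows of Serpina3k transcripts, 4.85% occur in Serpina3m, and reads from these have no certain gene.

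Serpina3f and Serpina3g lie next to each other among the expressed genes, and their promoters are shown because these leukocyte serpins were both higher in the PDR library. Each is printed over the 250 bases before the RefSeq start, at chr12:104214294-104214543 and chr12:104235897-104236146 on the plus strand of GRCm38.p6. Capitals mark TTCNNNGAA, a letter pattern that STAT factors can bind.
Serpina3f: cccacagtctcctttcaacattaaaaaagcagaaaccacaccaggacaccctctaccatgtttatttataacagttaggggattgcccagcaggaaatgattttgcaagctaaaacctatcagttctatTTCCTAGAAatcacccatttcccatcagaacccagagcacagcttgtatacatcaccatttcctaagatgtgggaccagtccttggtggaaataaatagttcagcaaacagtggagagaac
Serpina3g: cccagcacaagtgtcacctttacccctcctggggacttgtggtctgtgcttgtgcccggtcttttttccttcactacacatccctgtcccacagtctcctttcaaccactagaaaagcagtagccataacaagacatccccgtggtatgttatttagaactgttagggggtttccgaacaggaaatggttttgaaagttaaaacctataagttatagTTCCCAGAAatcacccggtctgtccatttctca
The pattern, searched on both strands, is in 8.30% of all promoter windows and in those of 8 of 52 serpin genes. Besides Serpina3f and Serpina3g, these are Serpina1f, Serpina3i, Serpina11, Serpinb2, Serpinb6a and Serpinb9c. Of the 14 genes more than 2-fold higher in PDR that have a promoter entry, 2 hold it. Such a match is a run of letters and shows no binding.

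**Figure D3:**
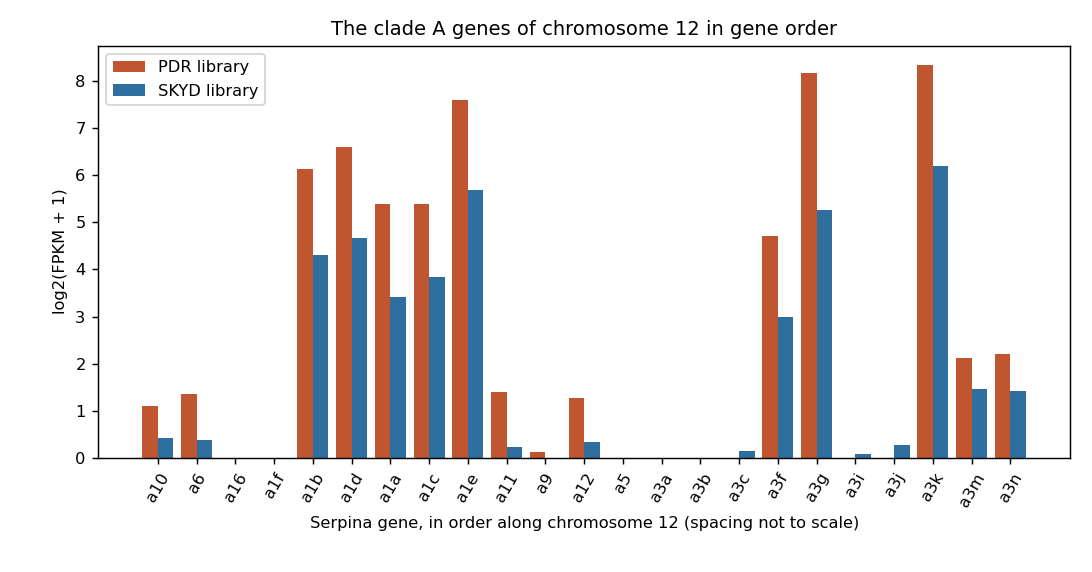
log2(FPKM + 1) of the 23 clade A genes on chromosome 12 in gene order, with the PDR library in the left and the SKYD library in the right bar of each pair, 1 pooled library each. The highest bars are those of the run from Serpina1b to Serpina1e and of Serpina3f, Serpina3g and Serpina3k, those of Serpina6, Serpina10, Serpina11 and Serpina12 are low, and Serpina5 and Serpina3a have none.

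Serpinc1, Serpind1 and Serpinf2, plasma serpins of the liver in other clades, were also higher in the PDR library, whereas Serping1, a plasma protein that liver and other tissues make, was not and is described with the tissue serpins. Serpinc1 (antithrombin), the main inhibitor of thrombin and factor Xa, had 2069 and 455 reads, or 10.3 and 2.13 FPKM, and was 4.84-fold higher in PDR (95% CI 4.37 to 5.37). Serpind1 (heparin cofactor II), an inhibitor of thrombin, had 176 and 33 reads and was 5.68-fold higher (95% CI 3.90 to 8.50). For Serpinf2 (alpha-2-antiplasmin), which stops plasmin, the levels were 6.03 and 1.43 FPKM and the fold was 4.22 (95% CI 3.31 to 5.43). Below the mean of 1 FPKM, reads were likewise more numerous in the PDR library for the corticosteroid carrier Serpina6 (65 and 13), the thyroxine carrier Serpina7 (31 and 11), the factor Xa inhibitor Serpina10 (93 and 29) and the little known Serpina11 (63 and 7). Of the latter, 32.8% of 100-base windows occur in another annotated gene. Serpina12 (vaspin), known from adipose tissue, had 123 and 23 reads.

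A group of 14 serpins listed as liver plasma proteins had a summed level of 794 and 195 FPKM, a ratio of 4.06. Serpina3n and Serping1, which liver and other tissues make, were not in this group. Their log2 differences were 0.79 and -0.26. Of the group, 10 genes had a mean of at least 1 FPKM and a median difference of 1.84. Among these 10, 9 passed 2-fold towards PDR (7.38% of all genes) and 0 towards SKYD (6.91%). Serpind1, 1 of the 9, reached that mean through the PDR library alone. Markers of hepatocytes moved with them. Of 11 markers, 8 passed 2-fold towards PDR (7.38% of all genes) and 0 towards SKYD (6.91%), the median difference was 1.60 and none was at 0 reads in either library. Their summed level was 2540 and 1287 FPKM. Albumin (Alb) had 14192 and 4261 reads, 3.54-fold higher in PDR, while Hp and Trf, which leukocytes also make, were higher in the SKYD library, with 13663 and 21554 reads for Hp. For every 100 Alb reads liver plasma serpins had 255 and 219 reads. For Serpina1b, this ratio was 27.7 and 26.8, and for Serpina3k 110 and 86.9. The ratio was lower in the PDR library for Serpina1c (9.26 and 10.6), Serpina3m (0.951 and 1.76), Serpina10 (0.655 and 0.681) and Serpina7 (0.218 and 0.258). For all other genes of the group it was higher in the PDR library. Among these were Serpina1e (52.1 and 47.7), Serpinc1 (14.6 and 10.7), Serpind1 (1.24 and 0.774) and Serpina11 (0.444 and 0.164). The part of the hepatocyte RNA in the serpin differences was not tested.

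**Figure D4:**
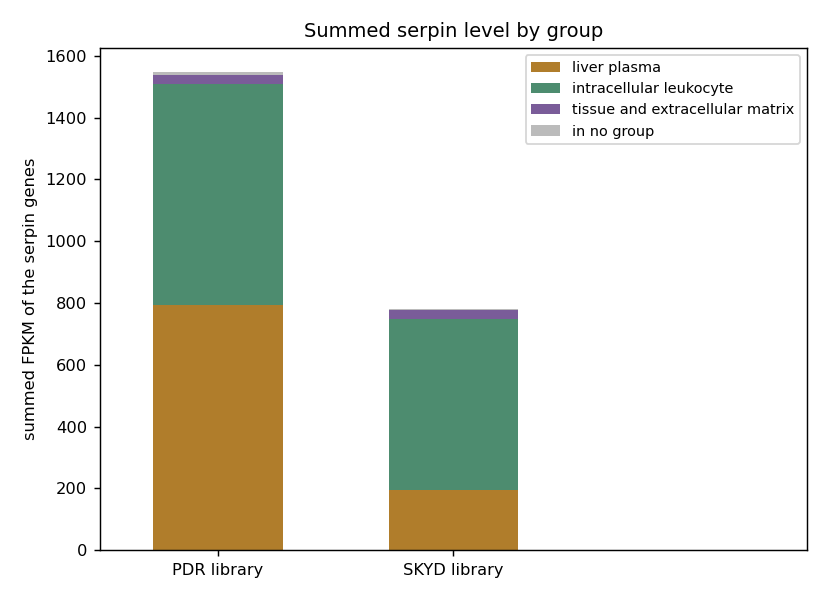
Summed FPKM of the serpin genes in the PDR and SKYD libraries, split into serpins of liver plasma, intracellular leukocyte serpins, serpins of tissue and extracellular matrix, and the genes in no group, with 1 pooled library each. The liver plasma part is 794 FPKM in PDR and 195 FPKM in SKYD, while the leukocyte part is 716 and 553 FPKM.

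The intracellular serpins of leukocytes, in contrast, did not move as a block. Of these 9 genes, 4 passed 2-fold towards PDR (7.38% of all genes) and 1 towards SKYD (6.91%), their median difference was 0.90, or 0.38 at a mean FPKM of at least 5, and the range reached from -1.07 to 2.91. Besides Serpina3f and Serpina3g, the genes higher in PDR were Serpinb9 and Serpinb9b. Serpinb9 protects cytotoxic cells and antigen-presenting cells from granzyme B. It had 2827 and 614 reads, or 34.4 and 7.03 FPKM, and was 4.90-fold higher in PDR (95% CI 4.49 to 5.35). Serpinb9b, a close relative with a coding identity of 86.1%, had 273 and 6 reads, or 3.47 and 0.0716 FPKM, which is 48.4-fold higher in PDR (95% CI 22.0 to 133.1). Serpinb9b reached the mean of 1 FPKM through the PDR library alone, and on the log2(FPKM + 1) scale the differences of Serpinb9b and Serpinb9 were 2.06 and 2.14.

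All 3 granzyme genes on the list of target proteases were higher in the PDR library, against 49.6% of all genes higher there by any amount. Granzyme B (Gzmb), the target of Serpinb9, had 3419 and 306 reads, 11.9-fold higher in PDR, and granzyme A (Gzma) 6055 and 2891 reads, 2.23-fold higher. Granzyme M (Gzmm) had 100 and 0 reads, a difference of at least 35.5-fold towards PDR when the limit of 3 reads is put in place of 0. Gzmm reached the mean of 1 FPKM through the PDR library alone. The natural killer cell marker Ncr1 had 406 and 96 reads, but Klrb1c, another such marker, had 319 and 243 reads and was 1.40-fold higher in PDR. Of the 8 markers of T and NK cells, 6 were more than 2-fold higher in SKYD (6.91% of all genes), and the median difference of the 8 was -2.38. All 4 B cell markers with a mean of at least 1 FPKM were more than 2-fold higher in PDR (7.38% of all genes), with a summed level of 1663 and 380.5 FPKM over the list of 5. The part of these cells in the levels of Serpinb9 and Serpina3g was not tested.

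The loop-coding stretches of Serpinb9, Serpinb9b and the related pair Serpinb6a and Serpinb6b, which differed in opposite directions, are shown because the hinge is nearly the same and the loops are not. Capitals mark the codons between hinge and loop end, on chromosome 13 of GRCm38, at chr13:33015693-33015782 and chr13:33039796-33039894 on the plus strand for Serpinb9 and Serpinb9b, at chr13:33918107-33918199 on the minus strand for Serpinb6a and at chr13:32978201-32978287 on the plus strand for Serpinb6b, all in the last exon.
Serpinb9: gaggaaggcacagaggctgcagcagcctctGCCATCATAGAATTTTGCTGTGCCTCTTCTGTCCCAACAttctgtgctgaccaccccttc
Serpinb9b: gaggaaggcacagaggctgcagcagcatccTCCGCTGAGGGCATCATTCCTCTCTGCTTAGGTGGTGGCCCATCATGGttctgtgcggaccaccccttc
Serpinb6a: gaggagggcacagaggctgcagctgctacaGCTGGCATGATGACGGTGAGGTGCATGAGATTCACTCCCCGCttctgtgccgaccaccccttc
Serpinb6b: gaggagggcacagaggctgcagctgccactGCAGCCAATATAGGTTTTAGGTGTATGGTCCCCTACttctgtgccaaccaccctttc
None of these 4 genes shares a 100-base window with another gene. The interferon-stimulated pattern, GAAA repeated after 2 bases of any kind and searched on both strands, is in 3.44% of promoter windows and in those of Serpina3a, Serpinb6a and Serpinb9 among the 52 serpin genes. In Serpinb6a it overlaps a TTCNNNGAA match. In Serpinb9 it starts at position -46 from the RefSeq start and is absent from the like stretch of Serpinb9b. These are the last 100 bases before each start, at chr13:33004441-33004540 and chr13:33027314-33027413 on the plus strand, with the pattern in capitals.
Serpinb9: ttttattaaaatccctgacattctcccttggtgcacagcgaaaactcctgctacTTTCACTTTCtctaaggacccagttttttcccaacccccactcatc
Serpinb9b: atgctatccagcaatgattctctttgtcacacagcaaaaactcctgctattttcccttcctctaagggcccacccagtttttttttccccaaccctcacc

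Serpinb6a, which inhibits cathepsin G, was the 1 clade B gene past 2-fold towards SKYD on the log2(FPKM + 1) scale. It had 1830 and 4225 reads, or 14.4 and 31.3 FPKM, and was 2.17-fold higher in SKYD, with a log2 difference of -1.07 (95% CI -1.14 to -0.99) that lies at the 2-fold limit. Its relative Serpinb6b went the other way, with 816 and 440 reads, or 15.4 and 7.78 FPKM, its log2 difference being 0.90 (95% CI 0.74 to 1.05). The Serpinb6a model overlaps Nqo2 and Ripk1 on the opposite strand, and whether the counting used strand is not given in the sources used here.

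The 2 most abundant clade B genes, Serpinb2 and Serpinb1a, and the lower Serpinb8 lay within 2-fold. Serpinb2 (plasminogen activator inhibitor 2), a serpin of monocytes and macrophages that inhibits urokinase, had 8386 and 14095 reads, or 152 and 240.1 FPKM, 1.58-fold higher in SKYD. Serpinb1a, which protects neutrophils and macrophages from elastase, cathepsin G and proteinase 3, had 178 and 216 FPKM, 1.21-fold higher in SKYD. Serpinb8, which is known to inhibit furin, had 5.54 and 6.20 FPKM, 1.12-fold higher in SKYD. The spread between mice was not measured. Macrophage markers had a median difference of -0.61 over 10 genes. Of these, 3 passed 2-fold towards SKYD (6.91% of all genes) and 0 towards PDR (7.38%), 7 lay within 2-fold, and Csf1r and Fcgr1 were higher in PDR. Their summed level was 24766 and 47264 FPKM, of which the single gene Lyz2 made up 22217 and 41336 FPKM. The Serpinb2 model overlaps Serpinb10 by 6476 bases on the same strand, and 7.52% of its 100-base windows occur there.

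Serpinb7 (megsin), known from kidney and skin, had 111 and 10 reads, or 2.41 and 0.204 FPKM, 11.8-fold higher in PDR (95% CI 6.19 to 25.3). It reached the mean of 1 FPKM through the PDR library alone. The remaining clade B genes with reads were low. Serpinb1b had 47 and 35 reads, Serpinb12 had 26 and 15, Serpinb5 (maspin) had 3 and 9, and Serpinb3a had 0 and 9.

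The neutrophil proteases that clade B and Serpina1 serpins restrain did not share a direction. Neutrophil elastase (Elane) had 788 and 143 reads, 5.86-fold higher in PDR, and cathepsin G (Ctsg) had 399 and 67 reads, 6.34-fold higher in PDR. Proteinase 3 (Prtn3) had 2002 and 3609 reads and was higher in the SKYD library. Over 12 neutrophil markers, which include these 3 genes, the median difference was 0.93, with 5 genes past 2-fold towards PDR (7.38% of all genes) and 0 towards SKYD (6.91%), and 1 of the 5, Mpo, reached the mean of 1 FPKM through the PDR library alone.

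Serpins of tissue and extracellular matrix were few and low. Their summed level over 6 genes was 29.6 and 27.8 FPKM. Serpinh1 (HSP47), which helps collagen to fold in the endoplasmic reticulum, had 50 and 318 reads, or 0.871 and 5.21 FPKM, and was 5.98-fold higher in SKYD. It passed the mean of 1 FPKM through the SKYD library alone. Fibroblast markers moved with it, with a summed level of 10.8 and 43.7 FPKM over 6 genes, 2 of which reached the mean of 1 FPKM, 1 of them (Lum) through the SKYD library alone, and were more than 2-fold higher in SKYD (6.91% of all genes). Decorin (Dcn) had 1375 and 5747 reads. Mesothelial markers had a summed level of 8.69 and 24.9 FPKM over 4 genes. Of the 3 that reached the mean of 1 FPKM, 2 were more than 2-fold higher in SKYD (6.91% of all genes), 1 of them (Upk3b) having reached that mean through the SKYD library alone. The part of either cell type in the Serpinh1 level was not tested.

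Serpine2 (protease nexin 1), which inhibits thrombin and urokinase, had 66 and 156 reads and was 2.22-fold higher in SKYD. Serpine3 had 0 and 5 reads. No clade E gene reached a mean of 1 FPKM.

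Serping1 (C1 inhibitor), which stops the first complement proteases and plasma kallikrein, had 629 and 812 reads, or 11.5 and 13.97 FPKM, with a log2 difference of -0.26 (95% CI -0.40 to -0.12). Its targets C1ra and C1s1 had 443 and 413 reads and 190 and 150 reads. Serpinf1 (pigment epithelium-derived factor), which inhibits no protease and limits vessel growth, had 12.8 and 6.48 FPKM, a log2 difference of 0.89 (95% CI 0.73 to 1.05). Serpini1 (neuroserpin), an inhibitor of tissue plasminogen activator best known from neurons, had 686 and 182 reads, or 4.01 and 0.999 FPKM, and was 4.01-fold higher in PDR (95% CI 3.40 to 4.75). Serpini1 was just below 1 FPKM in the SKYD library and passed the mean of 1 FPKM through the PDR library.

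Of the 36 genes under a mean of 1 FPKM, 20 had 0 reads in both libraries, which are 5 of clade A, 14 of clade B and Serpini2. In clade A these are Serpina1f, Serpina3a, Serpina3b, Serpina5 and Serpina16. In clade B they are Serpinb1c, Serpinb3b to Serpinb3d, Serpinb6c to Serpinb6e, Serpinb9c to Serpinb9g, Serpinb11 and Serpinb13. Reads were found in the SKYD library alone for Serpina3j (11), Serpinb3a (9), Serpina3c (6), Serpine3 (5) and Serpina3i (3). Serpina9, known from germinal centre B cells, was the 1 gene with reads in the PDR library only, with 8 reads.

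The proteases that serpins inhibit were described as a list of 36 genes. Of the 24 with a mean of at least 1 FPKM, 13 passed 2-fold towards PDR (7.38% of all genes) and 3 towards SKYD (6.91%), but 8 of the 13 were below 1 FPKM in the SKYD library and reached the mean through PDR alone. Their median difference was 1.18, but 0.19 at a mean FPKM of at least 5 and 0.25 without a filter. The 3 most abundant were lysosomal cathepsins of macrophages, and of these Ctss had 2184 and 2439 FPKM, Ctsb had 225 and 338 FPKM and Ctsh had 224 and 193 FPKM. Their log2 differences, -0.16, -0.58 and 0.21, lay within 2-fold. On the log2(FPKM + 1) scale, the largest differences were those of Gzmb (3.43) and Elane (2.36), while by plain FPKM ratio the low genes Gzmm (at least 35.5-fold) and Masp2 (17.1-fold) exceeded both. Among plasma proteases made by the liver, prothrombin (F2) had 993 and 157 reads and plasminogen (Plg) 470 and 71. Coagulation factors X (F10) and VII (F7) were higher in the SKYD library, with 6423 and 12527 reads for F10 and 596 and 1380 for F7. The plasminogen activators were low, with 27 and 119 reads for Plat and 15 and 10 for Plau.

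**Figure D5:**
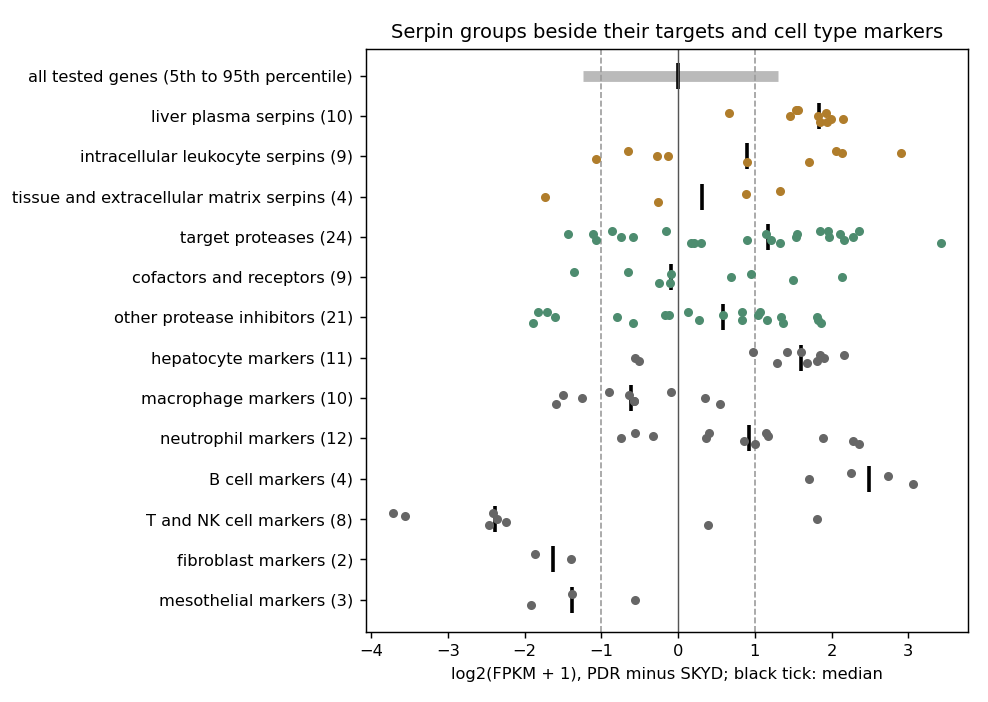
Difference in log2(FPKM + 1), PDR minus SKYD, of single genes (points) whose mean FPKM reached 1 in the serpin groups, the lists of target proteases, receptors and other inhibitors, and cell type markers, with the median as a black tick and the number of genes in brackets. The grey bar spans from -1.24 to 1.30, the 5th to 95th percentile of all tested genes taken singly, and is to be read against the points, not against the medians.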

How the data were processed

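Total RNA of sorted aortic macrophages was sequenced by the study, in 1 library of 5 pooled mice per group. The authors aligned the reads with TopHat (2.0.9, with Bowtie 2.0.6), counted them per gene with HTSeq (0.6.1) and deposited FPKM values and gene lengths for 54532 genes. Other values deposited in the table are gene positions and biotypes. The submitters' processing notes name mm9, but all 61 serpin genes have the start and end of GENCODE M21 on GRCm38, and this build was used. How reads that fit several genes were counted is not given in the sources used here.

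FPKM times gene length was a whole multiple of the step of 1 read, within 0.01, for 100% of the genes listed above 0, 17738 (PDR) and 20499 (SKYD). These reads were used for counting intervals and for limits of 3 reads at a count of 0. PCR duplicates were not marked, so intervals cover counting error only. Levels were compared as log2(FPKM + 1) over the 10399 genes whose mean FPKM reached 1, and more than 2-fold was counted. With 1 library per group no p-value was computed. The steps were tested on simulated data, in which all 54532 read numbers were recovered and 200 of 200 genes changed 4-fold were called.

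The members, groups, lists and alternatives were chosen with earlier results of these data known. All serpin genes at or above this mean are named, and those below with at least 10 reads, except 1 gene that is not reported here. Of the lists of target proteases, cofactors and receptors, and other inhibitors, the 3 most abundant genes and the 2 with the largest difference are named, and further genes as known targets or markers, after their values were seen. Promoter windows come from RefSeq (GRCm38.p6), with entries for 52 serpin genes. Alternatives were pseudocounts of 0.1 and 0.01, TPM, centring on the median, no filter or a mean FPKM of at least 5, a 4-fold threshold, summed gene clusters and shares of reads. Sequences were handled with Biopython 1.88 and figures drawn with matplotlib 3.10.9, in Python 3.11.15 with pandas 2.3.3, numpy 2.4.6 and scipy 1.17.1.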

Additional observations from a re-analysis of the deposited data

How the results depend on the processing

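Each library is 1 pool, so no replicate was left out, and the spread between mice is not known. No paired analysis was possible because each group has 1 library and the labels give no replicate numbers. Under pseudocounts of 0.1 and 0.01, TPM and centring on the median of all genes, all 25 genes with a mean of at least 1 FPKM kept their direction. With either pseudocount, 1 more gene was over 2-fold higher in PDR. The share of all genes past 2-fold towards PDR also rose, from 7.38% to 10.2% (pseudocount 0.1) and 10.5% (0.01). The cause of the shifts was not tested.

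The 15 and 2 genes more than 2-fold higher in PDR and SKYD became 4 and 0 at 4-fold on the log2(FPKM + 1) scale (1.87% and 2.08% of all genes). They became 8 and 1 of 15 units (7.38% and 6.91%) when clusters of related genes were summed. The clusters were Serpina1a to Serpina1e and all genes of Serpina3, Serpinb6 and Serpinb9. Of these, Serpina1a to Serpina1e are near-identical, while coding identity was as low as 81.8% within Serpina3. Serpinb6a and Serpinb6b, with 86.3% identity, were summed although they differed in opposite directions. At a mean FPKM of at least 5, reached by 17 genes, the counts were 10 and 1 (8.06% and 6.48%). With a pseudocount of 0.1 the median difference was 1.87 for all serpins, 1.90 for clades C to I, 1.99 for liver plasma serpins and 1.60 for target proteases, and with 0.01 it was 1.87, 1.99, 2.02 and 1.68. After rescaling to TPM the filter passed a larger set, 30 serpins and 11981 genes in all. Of these serpins, 18 passed 2-fold towards PDR (8.74% of all) and 2 towards SKYD (7.91%). Each clade A gene with a mean of at least 1 FPKM had a larger difference in TPM, as Serpina3k did (2.17 against 2.15). Over the larger set, the median difference in TPM was 1.69 for clade A and 1.54 for clades C to I. For cofactors and receptors it was 0.35, which changed sign. Without a filter it was 0 for all serpins, for clade B and for clades C to I, 0.73 for clade A, 1.55 for liver plasma, -0.32 for tissue serpins, which changed sign, and 0.25 for target proteases. With a mean FPKM of at least 5 it was 1.71 for all serpins, -0.21 for clade B, which changed sign, 0.89 for clades C to I, 0.38 for leukocyte serpins, 0.19 for target proteases, 0.95 for cofactors and receptors and -0.38 for other inhibitors, both of which changed sign. The ratio of the summed level, PDR over SKYD, was 1.99 for all serpins, 4.59 for clade A, 0.799 for clade B and 1.54 for clades C to I, and by shares of reads it was 1.87, 4.84, 0.829 and 2.11.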

Other observations

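Serpin genes outside the naming rule also had reads. Serpinb10, a leukocyte serpin annotated as a polymorphic pseudogene, had 2772 (PDR) and 3556 (SKYD) reads, a log2 difference of -0.26 (95% CI -0.33 to -0.19). Agt (angiotensinogen), a clade A protein of the liver that bears another name, had 330 and 88 reads, its log2 difference being 1.56 (95% CI 1.31 to 1.80). The pseudogene Serpina4-ps1 had 51 and 0 reads, a difference of at least 18.1-fold towards PDR with 3 reads in place of 0. Serpina3h had 0 and 4 reads, and the other 4 pseudogenes of the family had 0 reads in both libraries.

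Protease inhibitors of other families were far more abundant than serpins. Over 32 such genes the summed level was 7721 FPKM (PDR) and 15842 FPKM (SKYD), a ratio of 0.487. The median difference of the 21 genes that reached a mean of 1 FPKM was on the other side, 0.58, but it was -0.38 at a mean FPKM of at least 5. By any amount, 13 of the 21 were higher in PDR, against 49.6% of all genes. The 3 most abundant were Slpi, a secreted inhibitor of elastase, with 2408 and 4169 FPKM, Wfdc17, of the same domain family, with 2286 and 7461 FPKM, and cystatin C (Cst3), an inhibitor of cathepsins, with 2154 and 3236 FPKM. All 3 were higher in the SKYD library. On the log2(FPKM + 1) scale, the largest differences of these 21 genes were -1.90 for Spint2, an inhibitor of membrane serine proteases, and 1.86 for Itih4, an acute phase protein of the liver. By plain FPKM ratio, Timp1 (4.19-fold towards SKYD) exceeded Spint2, and Pzp (7.65-fold towards PDR) exceeded Itih4. Of 21 genes with a mean of at least 1 FPKM, 8 passed 2-fold towards PDR (7.38% of all genes) and 4 towards SKYD (6.91%), and 5 of the 8 were below 1 FPKM in the SKYD library and reached the mean through PDR alone.

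Of 12 cofactors and receptors of serpins and their targets, 9 had a mean of at least 1 FPKM and their median difference was -0.09. The median of the list was 0.35 in TPM, where the filter passed 11981 genes in all against 10399. It was 0.95 at a mean FPKM of at least 5. The urokinase receptor Plaur had 54.6 and 86.3 FPKM. Vitronectin (Vtn), an adhesive plasma protein of the liver, had 35.5 and 7.29 FPKM and the largest difference of the list, 2.14. The heparan sulfate proteoglycan Sdc4 had 7.04 and 7.67 FPKM. The hepatocyte receptor Asgr1 had a difference of 1.50. The clearance receptors Vldlr and Lrp1b had 0 reads in both libraries.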
